A study of Mus musculus with 91 samples.

Results

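XY *αSma-EYFP* cells were followed over a single day of fetal testis development, from E12.5 to E13.5. The genes described were all those with a single-gene transcript cluster (the probe set that the array uses for a gene) whose log2 signal reached 6 in at least 2 of 3 arrays at either stage. This rule kept 15152 of the 21789 clusters that name 1 gene. They represent 13780 genes, of 15359 genes that reached the same level in some sorted population of the series. Nearest to this limit were *Pcdhb18*, just inside with 5.43, 6.24 and 6.00 at E13.5 and 5.34, 5.53 and 5.41 at E12.5, and *Isl1*, just outside with 5.68, 5.89 and 6.15 at E13.5 and 5.87, 6.02 and 6.00 at E12.5.

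The fluorescent cells carried *Tg(Acta2-EYFP)Jll*, a transgene in which the promoter of *Acta2*, the gene for α smooth muscle actin, drives EYFP. The E13.5 group held 3 arrays of XY cells at 13.5 days post coitum and the E12.5 group held 3 arrays of XY cells at 12.5 days, all of the strain given as FVB (a mix with CD-1 in the study's methods) and without any treatment. Gonads from males of one or more litters were pooled for each array, dissociated with trypsin and sorted by FACS, so the replicates were separate pools and not single embryos. Both groups are labelled as male interstitial cells. The study's methods limit the line as a model: at E11.5 the reporter also marked supporting cells, and the study kept these arrays out of its main analyses. Cells of the same reporter from XX gonads, and XY cells sorted with *Sox9-ECFP* (supporting, that is Sertoli, cells), *Flk1-mCherry* (endothelial, with Leydig cells) and *Oct4-EGFP* (germ) at the same stages, served for comparison with 3 arrays each.

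The interstitium of the fetal testis is the space between the cords in which Sertoli and germ cells are enclosed. It holds mesenchymal progenitors, perivascular and smooth muscle-like cells, and fetal Leydig cells, which import cholesterol into mitochondria and turn it into androgens. Sertoli cells send hedgehog and PDGF signals to the interstitium, and Notch signalling is known to hold part of its progenitors back from the Leydig fate.

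Because the reporter is driven by *Acta2*, the region around the start of this gene is shown with that of *Pdlim3*, an actin-associated LIM protein of muscle whose signal was among those most increased at E13.5. Both sequences are from RefSeq (GRCm38.p6) and run 5′ to 3′ over 250 bases before and 50 bases after the start. Capitals mark CArG boxes, the sites known to be bound by serum response factor at muscle genes, searched on both strands with up to 1 G or C allowed among the 6 inner bases.
*Acta2*, chr19:34255324-34255623, minus strand: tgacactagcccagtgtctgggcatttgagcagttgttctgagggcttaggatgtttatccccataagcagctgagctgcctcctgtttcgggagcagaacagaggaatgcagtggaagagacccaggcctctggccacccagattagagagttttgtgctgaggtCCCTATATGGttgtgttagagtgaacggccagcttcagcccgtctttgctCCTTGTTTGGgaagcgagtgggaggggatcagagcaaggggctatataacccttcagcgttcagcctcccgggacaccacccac
*Pdlim3*, chr8:45885237-45885536, plus strand: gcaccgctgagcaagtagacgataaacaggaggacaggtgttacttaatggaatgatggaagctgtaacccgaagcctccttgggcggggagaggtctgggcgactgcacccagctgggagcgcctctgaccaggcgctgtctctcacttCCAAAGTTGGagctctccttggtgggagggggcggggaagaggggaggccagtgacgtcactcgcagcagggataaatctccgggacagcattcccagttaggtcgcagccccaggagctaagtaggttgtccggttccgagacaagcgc
The *Acta2* sequence held 2 boxes, starting at positions -84 and -34, and the *Pdlim3* sequence held 1 at -100, all counted from the RefSeq start. Such a box stood in 12 of the 64 genes higher at E13.5 with a sequence in the table (18.8%), in 9 of 62 lower genes (14.5%), and in 11.3% of all 27025 genes of the table. Of the 13780 genes described here, 10933 had a sequence, and 1163 of these held a box (10.6%). Of 23 smooth muscle list genes that reached the level, 17 had a sequence, and a box was present in 4 of these (23.5%). These matches describe letters in a window and do not show binding.

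The labels were checked first. *Eif2s3y*, on the Y chromosome, averaged 9.23 ± 0.17 at E13.5 and 9.22 ± 0.09 at E12.5 (log2 signal, SD, n = 3 each), against 4.67 ± 0.05 and 4.84 ± 0.42 in XX *αSma-EYFP* cells of these stages. *Acta2* itself had 9.49, 9.97 and 10.15 in the E13.5 arrays and 9.14, 8.39 and 8.57 in the E12.5 arrays. The stages did not overlap, yet the difference of 1.17 ± 0.38 on the log2 scale (SE) did not pass the test (adjusted p = 0.155, limma with Benjamini-Hochberg adjustment over 16859 clusters, as for every adjusted p given here). With array weights *Acta2* passed (1.27, adjusted p = 0.0033). That setting called many more genes in all, 309 higher and 298 lower at E13.5, against 86 and 85 without weights. The 6 arrays had medians of 7.72 to 7.80 over the members, and E13.5 replicate 1 was least like its group, with a mean correlation across genes of 0.982 against 0.988 and 0.989 for the other E13.5 arrays.

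The label of interstitial cells was set against defining markers. All 30 measured genes of an interstitial and mesenchymal list reached the level, among them the mesenchymal receptor gene *Pdgfra*, with means of 11.11 at E13.5 and 11.05 at E12.5. Most genes tested reached it (13780 of 15359), so reaching it says little about cell type. The Y-linked gene *Sry* averaged 7.77 at E13.5 and 7.75 at E12.5 in XX *αSma-EYFP* cells, which have no Y chromosome. All 24 genes of the Sertoli list also reached it. *Sox9*, the transcription factor that directs Sertoli differentiation, had 9.07, 9.06 and 8.88 in the E13.5 arrays and 10.00, 9.61 and 9.50 in the E12.5 arrays, against a mean of 11.14 in *Sox9-ECFP* cells at E12.5. Of the germ list, 13 of 20 measured genes were under the level at both stages, including the defining genes *Dazl* and *Ddx4*, and so were 16 of 23 macrophage and leukocyte genes, including *Adgre1* and *Csf1r*. The others reached it, among them *Kit* (mean 7.57 at E13.5) and *Nanos3* (7.23) of the germ list and *Cx3cr1* (7.21) of the macrophage list. Of 26 measured endothelial genes 20 reached it, among them *Fli1* (7.82 at E13.5).

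Between E12.5 and E13.5 the XY *αSma-EYFP* cells changed in a small share of their genes. Steroidogenic, mural and matrix genes were among those higher at E13.5, and 9 of 24 Sertoli genes were among those lower. At E13.5, 86 genes were higher and 85 were lower at an adjusted p under 0.05. Over all 15359 genes tested, members or not, 87 were called in each direction (0.566%, and 1.13% together). Fold changes were modest: the median was 1.7-fold for higher genes and 1.68-fold for lower genes, the largest was 6.25-fold and 5.5-fold, and 18 higher and 25 lower genes differed 2-fold or more. The 3 arrays of each stage did not overlap for 79 of the 86 and 82 of the 85 genes, while 6.95% and 7.85% of all genes tested were separated in these directions. Most called genes reached the level at both stages (73 higher, 81 lower), and 13 higher genes reached it at E13.5 only and 4 lower genes at E12.5 only. Without the correction for multiple tests, 450 genes were higher and 564 lower at p under 0.05. The counts rested in part on single arrays: without E12.5 replicate 1 they were 50 and 22, without E13.5 replicate 1 82 and 34, without E13.5 replicate 2 59 and 49, and without E13.5 replicate 3 54 and 75.

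**Figure D1:**
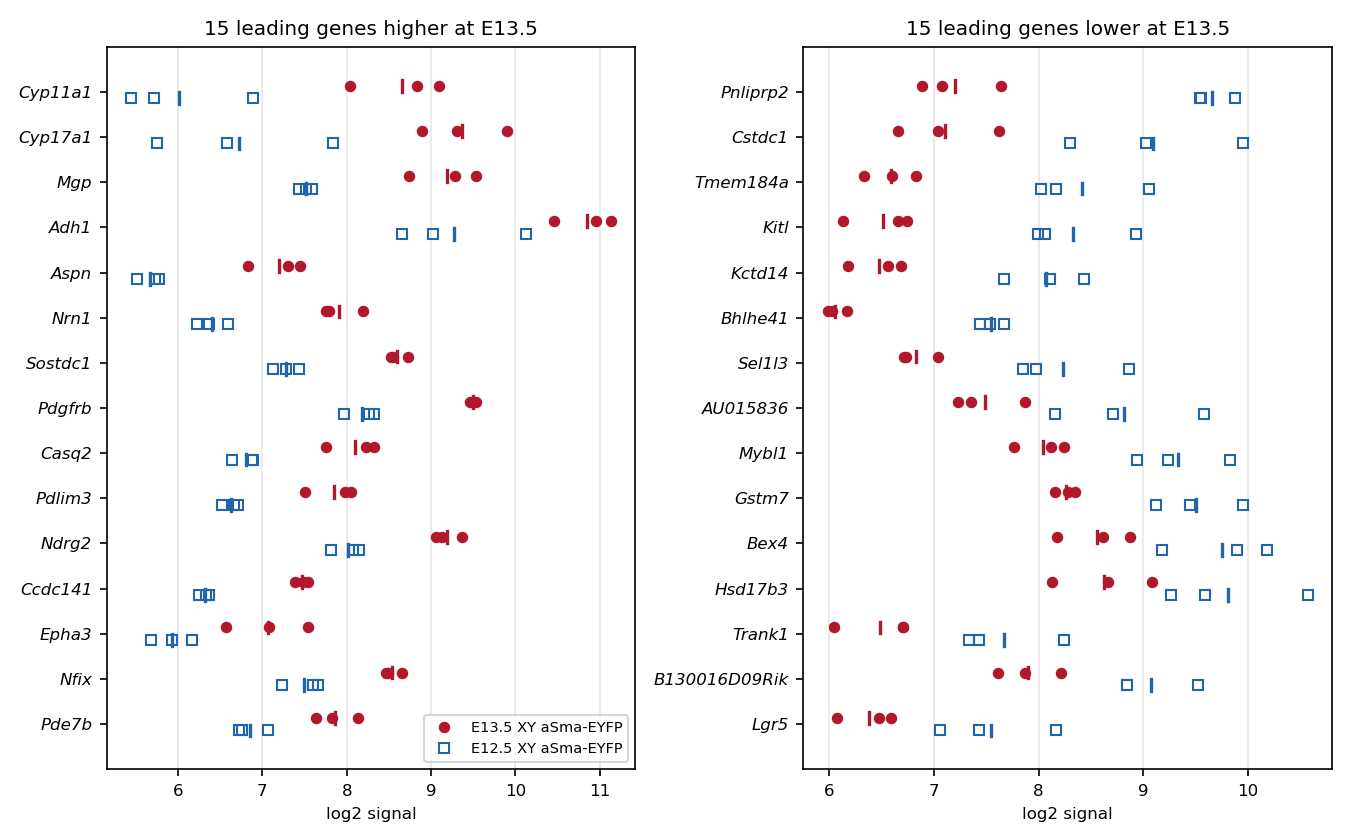
Log2 signal (x axis) of the 15 genes with the largest increases at E13.5 (left) and the 15 with the largest decreases (right) among called genes whose arrays did not overlap. Filled circles are the 3 E13.5 arrays, open squares the 3 E12.5 arrays and vertical bars the group means. E12.5 replicate 1 is the highest square for both *Cyp11a1* (6.89) and *Cstdc1* (9.95).

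The largest increases were in 2 enzymes of steroid hormone synthesis. *Cyp11a1*, the side-chain cleavage enzyme that starts the pathway, had 8.04, 8.84 and 9.10 in the E13.5 arrays, against 6.89, 5.44 and 5.71 in the E12.5 arrays. *Cyp17a1*, which makes androgen precursors, had 8.89, 9.90 and 9.30 at E13.5, against 7.83, 5.75 and 6.58 at E12.5. No array of 1 stage reached into the other for either gene, and E12.5 replicate 1 was the highest of its stage in both. *Cyp11a1* was 6.25-fold higher (log2 difference 2.64 ± 0.28, adjusted p = 2.89e-10) and *Cyp17a1* was also 6.25-fold higher (2.64 ± 0.27, adjusted p = 7.95e-11). *Cyp11a1* reached the level of 6 in only 1 E12.5 array and was thus a member through E13.5 alone, so its fold was taken against signals near the array's background. With the 6 arrays fitted alone *Cyp17a1* was not called (adjusted p = 0.0557).

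The other 3 called genes of the pathway had smaller increases, and each lost its call without at least 1 array. *Hsd3b1*, a hydroxysteroid dehydrogenase of the same pathway, had 8.19, 6.63 and 6.21 at E13.5 and 6.26, 5.26 and 5.56 at E12.5. It was a member through E13.5 alone. A single array, E13.5 replicate 1, was far above the rest, and the stages overlapped. Its difference of 1.32 (adjusted p = 0.00152) was 0.73 without that array (adjusted p = 0.25). *Star*, which carries cholesterol into mitochondria, had 8.15, 8.80 and 9.08 at E13.5 and 8.60, 7.49 and 7.24 at E12.5, again with overlap. Its difference of 0.90 (adjusted p = 0.0188) was not called without E12.5 replicate 2 (0.76, adjusted p = 0.188) or replicate 3 (0.63, adjusted p = 0.387), nor without E13.5 replicate 2 (0.84, adjusted p = 0.126) or replicate 3 (0.70, adjusted p = 0.271). *Fdx1*, the ferredoxin that passes electrons to mitochondrial P450 enzymes, had 10.30, 10.66 and 10.83 at E13.5, against 10.28, 9.82 and 10.05 at E12.5. Its difference of 0.54 (adjusted p = 0.0385) was not called without E13.5 replicates 2 or 3 (0.51, adjusted p = 0.189, and 0.43, adjusted p = 0.37) or E12.5 replicates 2 or 3 (0.43, adjusted p = 0.38, and 0.54, adjusted p = 0.112).

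Of 18 Leydig and steroid synthesis genes that reached the level, these 5 were higher, 1 was lower and 12 did not pass, with a median difference of 0.15, beside -0.01 over all 13780 genes. The summed linear signal of the list was 5800 to 8290 at E13.5 and 4740 to 7170 at E12.5. The gene that was lower was *Hsd17b3*, which reduces androstenedione to testosterone and, in the fetal mouse testis, is known from Sertoli cells. It had 8.12, 8.66 and 9.09 at E13.5, against 10.58, 9.26 and 9.59 at E12.5, a difference of -1.18 (adjusted p = 0.0235). Its mean was 11.08 in *Sox9-ECFP* cells and 6.52 in *Flk1-mCherry* cells at E12.5. The call of *Hsd17b3* was lost without E12.5 replicate 1 (-0.80, adjusted p = 0.643), E13.5 replicate 1 (-0.93, adjusted p = 0.324) or E13.5 replicate 2 (-1.20, adjusted p = 0.0814). The count of 5 higher genes was 3 without E13.5 replicate 2, E13.5 replicate 3 or E12.5 replicate 2, and 4 or 5 without any of the others.

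Cholesterol supply is upstream of this pathway. Of 20 genes for cholesterol synthesis and uptake, 18 had a positive difference (median 0.28), and *Fdps*, the farnesyl diphosphate synthase, was the only one called, with 9.61, 9.75 and 9.87 at E13.5 and 9.08, 9.03 and 9.12 at E12.5. Its arrays were tightly grouped and well apart, and the difference was 0.67 ± 0.14 (adjusted p = 0.00313).

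**Figure D2:**
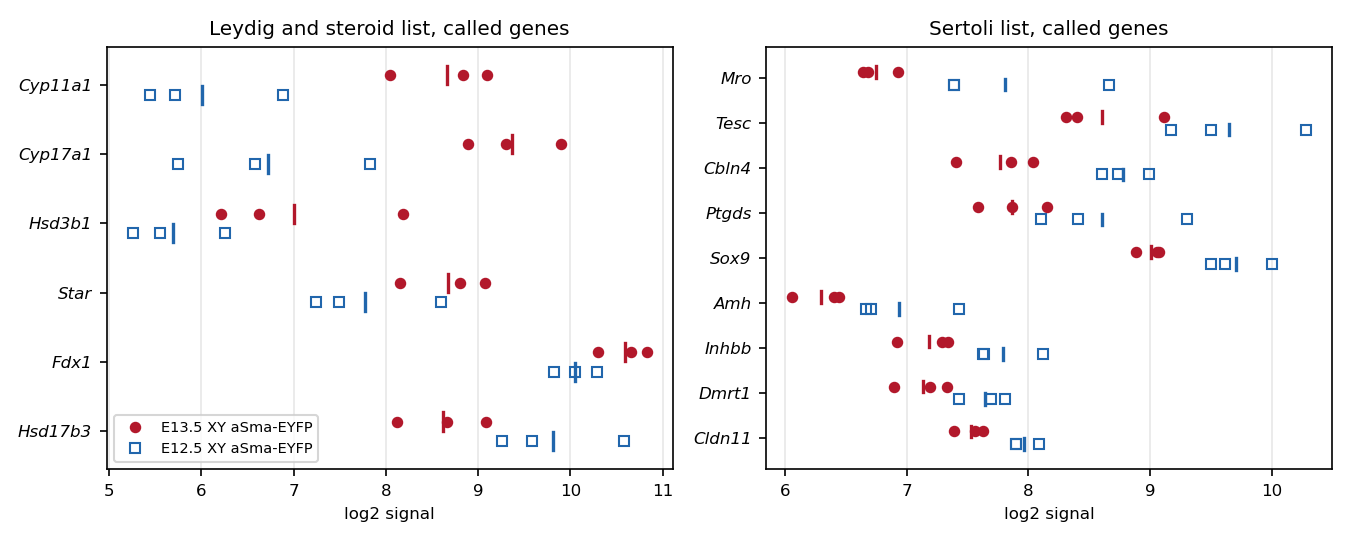
Log2 signal (x axis) of the called genes of the Leydig and steroid synthesis list (left) and of the Sertoli list (right). Filled circles are the 3 E13.5 arrays, open squares the 3 E12.5 arrays and vertical bars the means. In the Sertoli list all 9 genes have every E13.5 array below every E12.5 array except *Ptgds*, whose ranges meet (8.15 at E13.5, 8.10 at E12.5).

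Among genes of perivascular cells, 4 of the 14 in the pericyte and mural list were higher and 10 did not pass the test. *Pdgfrb*, the PDGF receptor of pericytes, had 9.46, 9.53 and 9.50 at E13.5, against 8.32, 8.26 and 7.97 at E12.5. It was 2.48-fold higher (log2 difference 1.31 ± 0.24, adjusted p = 0.000388), with the E13.5 arrays nearly identical. *Gucy1b1*, a subunit of the nitric oxide receptor guanylate cyclase, was higher by 0.95 (adjusted p = 0.00196). *Abcc9*, the sulfonylurea receptor of mural KATP channels, was higher by 0.72 (adjusted p = 0.000294). *Rgs5*, a regulator of G protein signalling widely used as a pericyte marker, had 6.51, 7.43 and 7.30 at E13.5 and 5.93, 6.59 and 5.97 at E12.5, with overlapping ranges. It was a member through E13.5 alone. The median difference of the list was 0.40, with 11 positive and 3 negative differences. The negative ones were those of *Anpep* (-0.24), *Nkx3-2* (-0.14) and *Cspg4* (-0.13), none with an unadjusted p under 0.05, although the E13.5 arrays of *Anpep* and *Nkx3-2* all lay below the E12.5 arrays. The call of *Rgs5* (0.92, adjusted p = 0.0475) was lost without E13.5 replicate 2 (0.74, adjusted p = 0.387) or replicate 3 (0.81, adjusted p = 0.27), or E12.5 replicate 1 (0.80, adjusted p = 0.401) or replicate 3 (0.82, adjusted p = 0.247), and that of *Gucy1b1* without E13.5 replicate 3 (0.80, adjusted p = 0.0501).

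Few contractile genes passed the test. Only *Mylk*, the myosin light chain kinase, was called among 23 genes of the smooth muscle list, with 8.55, 8.61 and 8.17 at E13.5 and 7.74, 8.03 and 7.66 at E12.5 (difference 0.64, adjusted p = 0.00219), and it was not called with the 18 *αSma-EYFP* arrays (adjusted p = 0.0597) or the 6 arrays (adjusted p = 0.122) fitted alone. The list had 20 positive differences, of which 5 had an unadjusted p under 0.05, and a median of 0.13. *Myh11*, the smooth muscle myosin heavy chain, averaged 8.12 at E13.5 and 7.80 at E12.5 (adjusted p = 0.305), and *Tagln*, a calponin family protein, averaged 7.05 at E13.5 and 7.12 at E12.5. 2 genes from outside this list had clearer increases. *Casq2*, the calcium-storing calsequestrin of heart and smooth muscle, had 7.75, 8.23 and 8.32 at E13.5, against 6.89, 6.65 and 6.87 at E12.5. It was 2.46-fold higher (1.30 ± 0.15, adjusted p = 1.89e-09). *Pdlim3* had 7.51, 7.98 and 8.05 at E13.5, against 6.66, 6.52 and 6.72 at E12.5, and was 2.32-fold higher (1.22 ± 0.15, adjusted p = 3.73e-08). Neither gene overlapped between the stages.

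Most interstitial and matrix genes had positive differences, though few passed the test. In the interstitial list 28 of 30 differences were positive (median 0.31), 5 genes were called higher and none lower. *Mgp*, the matrix Gla protein that inhibits calcification, had 8.74, 9.28 and 9.54 at E13.5, against 7.43, 7.52 and 7.59 at E12.5, and was 3.19-fold higher (1.67 ± 0.36, adjusted p = 0.00345). *Prrx1*, a mesenchymal homeobox factor, was 1.99-fold higher (adjusted p = 0.00194), and *Igf1*, the growth factor, 1.81-fold higher (adjusted p = 0.00194). *Prrx1* was not called with the 18 *αSma-EYFP* arrays fitted alone, without (adjusted p = 0.0565) or with the replicate block (adjusted p = 0.0721). *Inhba*, the activin βA subunit, was 1.82-fold higher (adjusted p = 0.0114), and the chemokine gene *Cxcl12* 1.95-fold (adjusted p = 0.0472). The count of 5 was 3 without E13.5 replicate 2 or 3, or E12.5 replicate 1 or 2: *Inhba* lost its call without each of these 4 arrays (adjusted p = 0.0723 to 0.136), and *Cxcl12* without these or E12.5 replicate 3 (adjusted p = 0.0661 to 0.271).

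Among 40 other extracellular matrix genes 31 differences were positive (median 0.24) and 4 were called, all higher. Beside *Mgp* these were *Lama2*, the laminin α2 chain (difference 0.87, adjusted p = 0.000393), *Loxl1*, which cross-links elastin (0.78, adjusted p = 1.78e-05), and *Nid2*, a nidogen of basement membranes (0.59, adjusted p = 0.0389). *Loxl1* was the most even, with 8.26, 8.09 and 8.21 at E13.5, against 7.39, 7.37 and 7.47 at E12.5. *Nid2* lost its call without any 1 of 5 arrays (adjusted p = 0.0632 to 0.344, all but E13.5 replicate 1). Of 29 collagens only *Col6a3* (0.87, adjusted p = 0.0087) and *Col6a1* (0.48, adjusted p = 0.0165), subunits of the same collagen VI trimer, were called. *Col6a3* was not called without E13.5 replicate 3 (0.69, adjusted p = 0.167) or E12.5 replicates 1 or 3 (0.79 and 0.78), nor *Col6a1* without E13.5 replicates 2 or 3 or E12.5 replicates 1 or 3 (adjusted p = 0.0638 to 0.123).

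**Figure D3:**
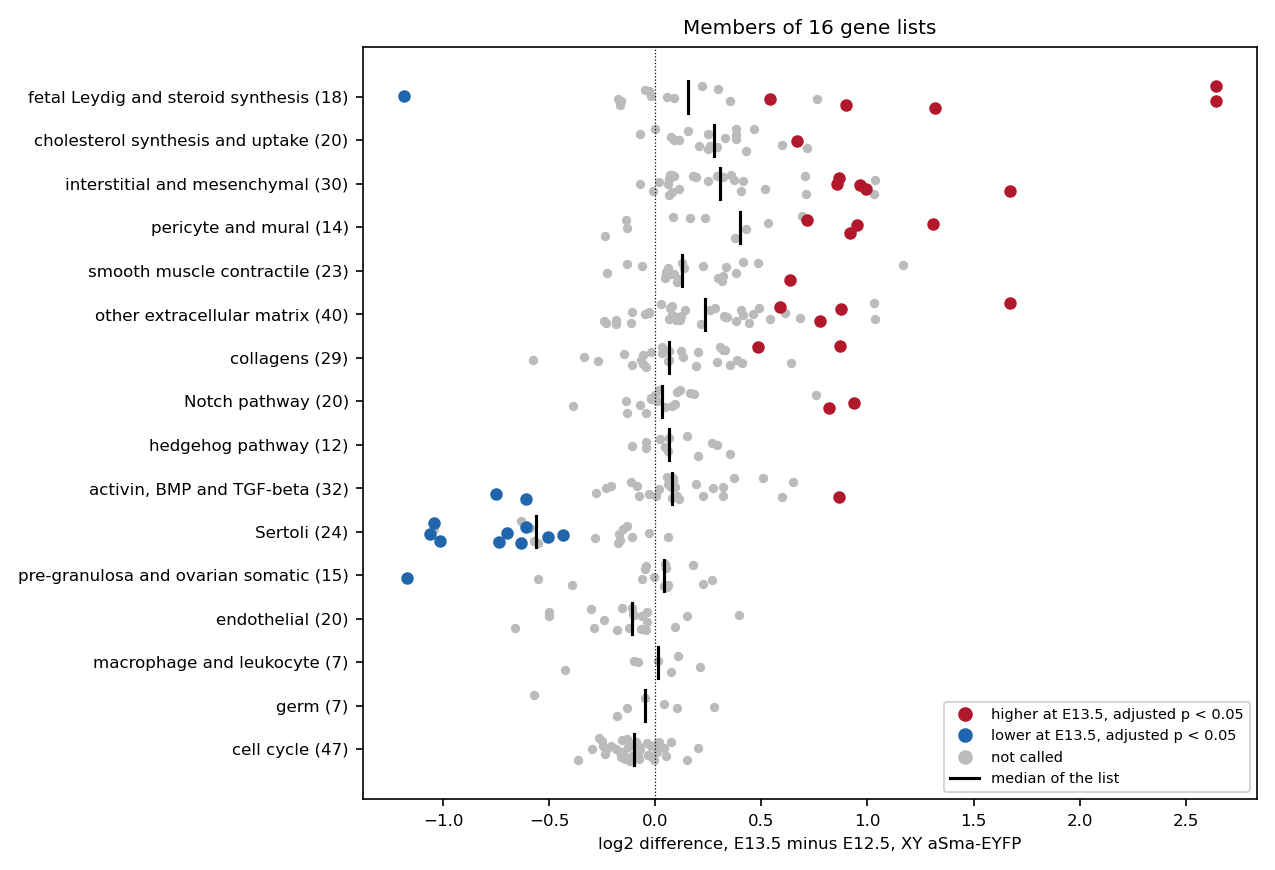
Log2 difference, E13.5 minus E12.5 (x axis), of each member gene of 16 lists (y axis, number of genes in brackets). Red points were higher and blue points lower at an adjusted p under 0.05, grey points were not called, and black bars are list medians. The Sertoli list lies to the left (median -0.56) and the pericyte list to the right (median 0.40).

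Several leading increases lay outside these groups. *Adh1*, an alcohol dehydrogenase that can oxidize retinol, had 10.45, 10.95 and 11.14 at E13.5, against 10.13, 8.66 and 9.02 at E12.5, and was 2.98-fold higher (1.58 ± 0.24, adjusted p = 1.38e-05). *Aspn*, a small leucine-rich proteoglycan, had 6.83, 7.44 and 7.30 at E13.5, against 5.78, 5.52 and 5.72 at E12.5, all 3 of these under the level of 6. *Sostdc1*, a secreted BMP and Wnt antagonist, had 8.55, 8.72 and 8.52 at E13.5, against 7.28, 7.13 and 7.43 at E12.5. All 3 genes were separated between the stages, *Aspn* 2.87-fold higher (adjusted p = 8.76e-05) and *Sostdc1* 2.49-fold (adjusted p = 7.95e-11). *Nrn1* (neuritin, a GPI-anchored protein), *Ndrg2*, *Ccdc141*, *Nfix* (a nuclear factor I protein) and *Pde7b* (a cAMP phosphodiesterase) were 2.02-fold to 2.86-fold higher. *Epha3*, an ephrin receptor, had 6.57, 7.08 and 7.54 at E13.5, against 5.68, 6.17 and 5.93 at E12.5, and was the only one of 38 guidance ligands and receptors called (1.14, adjusted p = 9.96e-05). It was a member through E13.5 alone, with E12.5 signals near the level of 6. Of the 15 leading increases, 14 kept their call without any 1 of the 6 arrays, and *Pde7b* lost it without E13.5 replicate 3 (0.88, adjusted p = 0.108) or E12.5 replicates 2 or 3 (0.97, adjusted p = 0.0513, and 0.95, adjusted p = 0.0606). With the 6 arrays fitted alone, *Adh1* (adjusted p = 0.108), *Epha3* (adjusted p = 0.0889) and, as given above, *Cyp17a1* were not called.

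Signalling genes were called in small numbers. In the Notch pathway list (20 genes, median 0.03) the target *Heyl* had 9.31, 9.64 and 9.81 at E13.5, against 8.69, 8.85 and 8.41 at E12.5 (difference 0.94, adjusted p = 4e-04). Its ligand *Jag1* had 7.66, 7.86 and 7.83 at E13.5, against 7.26, 7.02 and 6.61 at E12.5 (0.82, adjusted p = 0.00328). Both were higher with no overlap, and the other 18 Notch genes did not pass. *Jag1* was not called without E12.5 replicate 3 (0.64, adjusted p = 0.0981). None of 12 hedgehog pathway genes was called (limma, 1 with an unadjusted p under 0.05), and the direct target *Gli1* averaged 8.92 at E13.5 and 8.63 at E12.5. *Esr1*, the estrogen receptor, was the only called gene of 27 nuclear receptors and gonadal transcription factors (0.58, adjusted p = 0.00557), and it was not called without E13.5 replicate 3 (0.51, adjusted p = 0.0755).

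The activin, BMP and TGF-β list (32 genes, median 0.08) held *Inhba*, described above, and 2 genes that were lower. *Amhr2*, the receptor of anti-Müllerian hormone, had 7.36, 7.27 and 7.45 at E13.5, against 8.31, 8.09 and 7.93 at E12.5 (-0.75, adjusted p = 0.00402). *Inhbb*, the activin βB subunit, had 6.92, 7.34 and 7.29 at E13.5, against 8.12, 7.63 and 7.63 at E12.5 (-0.61, adjusted p = 0.0207). The 2 activin subunit genes therefore differed in opposite directions between the stages. *Amhr2* lost its call without E12.5 replicate 1 (-0.65, adjusted p = 0.0961), and *Inhbb* without that array (-0.45, adjusted p = 0.496) or E13.5 replicate 1 (-0.48, adjusted p = 0.313).

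The list of FGF, PDGF, VEGF and IGF signals (37 genes, median 0.05) had 2 higher genes, *Igf1* and *Pdgfrb*, and 1 lower, *Kitl*. In the Wnt list (33 genes, median 0.05) a gene was called in each direction. *Dkk1*, a secreted inhibitor of Wnt co-receptors, had 8.44, 8.21 and 8.41 at E13.5, against 7.76, 7.48 and 7.65 at E12.5, and was 1.65-fold higher (adjusted p = 0.0019). *Lgr5*, the R-spondin receptor, had 6.48, 6.07 and 6.59 at E13.5, against 8.16, 7.06 and 7.43 at E12.5, and was 2.25-fold lower (adjusted p = 0.0186). *Lgr5* was not called without E12.5 replicate 1 (-0.86, adjusted p = 0.47), E13.5 replicate 1 (-1.22, adjusted p = 0.051) or E13.5 replicate 2 (-1.02, adjusted p = 0.18).

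Of the genes lower at E13.5, *Pnliprp2*, a pancreatic lipase-related protein, changed most. It had 7.08, 6.89 and 7.64 at E13.5, against 9.88, 9.54 and 9.55 at E12.5, and was 5.50-fold lower (-2.46 ± 0.24, adjusted p = 7.95e-11). The gap between the stages was far wider than the spread within either. *Kitl*, the Kit ligand that supports germ cells, had 6.13, 6.75 and 6.66 at E13.5, against 8.93, 7.99 and 8.06 at E12.5, and was 3.52-fold lower (adjusted p = 1.51e-07). *Cstdc1*, a cystatin domain protein, had 6.66, 7.04 and 7.62 at E13.5, against 9.95, 8.30 and 9.02 at E12.5 (3.96-fold lower, adjusted p = 0.00466). *Tmem184a*, a membrane protein, was 3.55-fold lower, *Kctd14* 3.04-fold, *Bhlhe41*, a basic helix-loop-helix repressor, 2.81-fold, and *Sel1l3* 2.64-fold. *Mybl1*, a MYB family transcription factor, had 8.25, 7.76 and 8.12 at E13.5, against 9.83, 8.94 and 9.23 at E12.5 (2.45-fold lower, adjusted p = 0.00105). *AU015836*, *Gstm7* (a glutathione transferase), *Bex4*, *Trank1* and *B130016D09Rik* were 2.25-fold to 2.51-fold lower. E12.5 replicate 1 had the highest E12.5 signal in all 15 leading decreases except *B130016D09Rik*, and 8 of the 15 were not called without it: *AU015836* (-0.94, adjusted p = 0.624), *Bex4* (-0.98, adjusted p = 0.119), *Bhlhe41* (-1.43, adjusted p = 0.0598, against -1.49 with it), *Cstdc1* (-1.55, adjusted p = 0.183), *Hsd17b3*, *Lgr5*, *Mybl1* (-1.04, adjusted p = 0.0598) and *Trank1* (-0.90, adjusted p = 0.256). The other 7 kept their call without any 1 of the 6 arrays, *Pnliprp2* and *Kitl* among them. Of these, *Sel1l3* (adjusted p = 0.0534) and *B130016D09Rik* (adjusted p = 0.0585) were not called with the 6 arrays fitted alone.

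The Sertoli list was the set in which most genes were lower. Of its 24 genes 9 were called lower and none higher, 23 differences were negative, and the median was -0.56. *Cbln4*, a secreted cerebellin of early Sertoli cells, had 8.03, 7.40 and 7.86 at E13.5, against 8.99, 8.60 and 8.73 at E12.5 (2.02-fold lower, adjusted p = 6.35e-05). *Tesc*, a calcium-binding protein of the early testis, had 8.31, 8.40 and 9.11 at E13.5, against 10.28, 9.17 and 9.50 at E12.5 (adjusted p = 0.00704). *Amh*, the hormone that removes the Müllerian ducts, had 6.40, 6.06 and 6.44 at E13.5, against 7.43, 6.71 and 6.67 at E12.5 (-0.63, adjusted p = 0.0354). For each of these 3 genes the E13.5 arrays all lay below the E12.5 arrays. *Mro*, *Ptgds* (a prostaglandin D synthase), *Sox9*, *Inhbb*, *Dmrt1* (a gonadal transcription factor) and *Cldn11* (a tight junction protein) were lower by 0.43 to 1.06 on the log2 scale.

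The summed linear signal of the Sertoli list was 5440 to 6550 at E13.5 and 7890 to 12000 at E12.5. The list's mean log2 signal was 7.32, 7.35 and 7.51 in the E13.5 arrays and 8.24, 7.71 and 7.73 in the E12.5 arrays, so E12.5 replicate 1 was the highest but all 3 were above E13.5. In bulk sorted cells, fewer cells of a type and less RNA per cell cannot be told apart. The count of 9 rested on a few arrays: it was 1 without E12.5 replicate 1, 1 without E13.5 replicate 1 and 2 without E13.5 replicate 2, and 8 or 9 without any of the other 3. *Cbln4* was called in each of these cases, while without E12.5 replicate 1 *Tesc* differed by -0.73 (adjusted p = 0.371), *Mro* by -0.63 (adjusted p = 0.833) and *Ptgds* by -0.39 (adjusted p = 0.883).

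The lists of other cell types held almost no called gene. None of 20 endothelial genes was called (limma, 1 higher and 3 lower at an unadjusted p under 0.05), though 17 of the 20 differences were negative, with a median of -0.11. For 5 of the 20 the E13.5 arrays all lay below the E12.5 arrays, as for 7.85% of all genes tested. The summed signal also did not overlap, with 2670 to 2760 at E13.5 and 2940 to 3060 at E12.5. No member of the macrophage, germ or red blood cell lists passed, nor any with an unadjusted p under 0.05. Of 15 pre-granulosa genes only *Lgr5* was called. Of 47 cell cycle genes none passed (1 lower at an unadjusted p under 0.05) and 38 differences were negative, with a median of -0.10. The retinoic acid, protease, Hox, mesonephric, neural, handling stress, Y-linked, respiratory chain, ribosome biogenesis and cell cycle inhibitor lists also held no called gene (limma), with 0 to 3 genes of each at an unadjusted p under 0.05. Some of these lists still leaned one way. Of 35 ribosome biogenesis genes 30 differences were negative (median -0.15). Their summed signal was 29000 to 30500 at E13.5 and 31900 to 32700 at E12.5. Of 44 respiratory chain genes 35 were negative (median -0.07), and of 26 handling stress genes 19 (median -0.11), beside 7330 of all 13780 genes. The summed signals of these lists overlapped between the stages. They were 77600 to 88000 at E13.5 and 83400 to 90700 at E12.5 for the respiratory chain. For handling stress they were 13300 to 13700 at E13.5 and 13300 to 15000 at E12.5. The 25 Hox genes had 18 positive differences (median 0.08), with sums of 7140 to 7430 at E13.5 and 6070 to 6660 at E12.5.

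To place the called genes among the gonadal lineages, their mean levels were compared over XY *Sox9-ECFP*, *Flk1-mCherry* and *Oct4-EGFP* cells at E12.5, arrays that share no sample with the *αSma-EYFP* arrays. Of the 85 genes lower at E13.5, 78 (91.8%) were highest in *Sox9-ECFP* cells, as were 29.9% of all members. Of the 86 genes higher at E13.5, 67 (77.9%) were highest in *Flk1-mCherry* cells, the sort that also holds Leydig cells, as were 36.4% of all members. *Cyp11a1* and *Cyp17a1* were among these 67, with E12.5 means of 8.25 and 9.24 in *Flk1-mCherry* cells and of 5.83 and 5.74 in *Sox9-ECFP* cells. *Adh1* was among the 13 higher genes that were highest in *Sox9-ECFP* cells (10.66, against 10.49 in *Flk1-mCherry* cells). A top rank did not need a high signal or a wide margin. *Casq2* had 5.55 in *Flk1-mCherry* and 5.49 in *Sox9-ECFP* cells, and *Pdgfrb* had 6.58 and 6.29. The E12.5 means of these 2 genes in XY *αSma-EYFP* cells were 6.80 and 8.18. This grouping ranks means without a test and was chosen after the values were seen, and the part played by the makeup of the sorted cells in the changes was not tested.

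The same step was read within XY *Sox9-ECFP* cells. In them 5 of the 86 genes (5.81%) were also higher at E13.5, where 142 of all 15359 genes tested were (0.925%), and 14 of the 85 (16.5%) were also lower, where 167 of all genes tested were (1.09%). *Cyp11a1* and *Cyp17a1*, with the largest increases, and *Pnliprp2*, with the largest decrease, were among them. None of the other leading increases and decreases passed in *Sox9-ECFP* cells. There the other leading decreases went both ways, with -0.38 for *Kitl* (adjusted p = 0.748) and 0.42 for *Hsd17b3* (adjusted p = 0.842). *Cyp17a1* averaged 7.49 at E13.5 and 5.74 at E12.5 in *Sox9-ECFP* cells (adjusted p = 5.7e-06), and *Cyp11a1* 7.18 at E13.5 and 5.83 at E12.5 (adjusted p = 0.00108). *Pnliprp2* averaged 8.22 at E13.5 and 9.69 at E12.5 in these cells (adjusted p = 3.3e-05). The median differences were 0.08 for the 86 and -0.13 for the 85 genes in *Sox9-ECFP* cells, and 0.77 and -0.75 in *αSma-EYFP* cells, and no test was made of the difference between these steps.

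**Figure D4:**
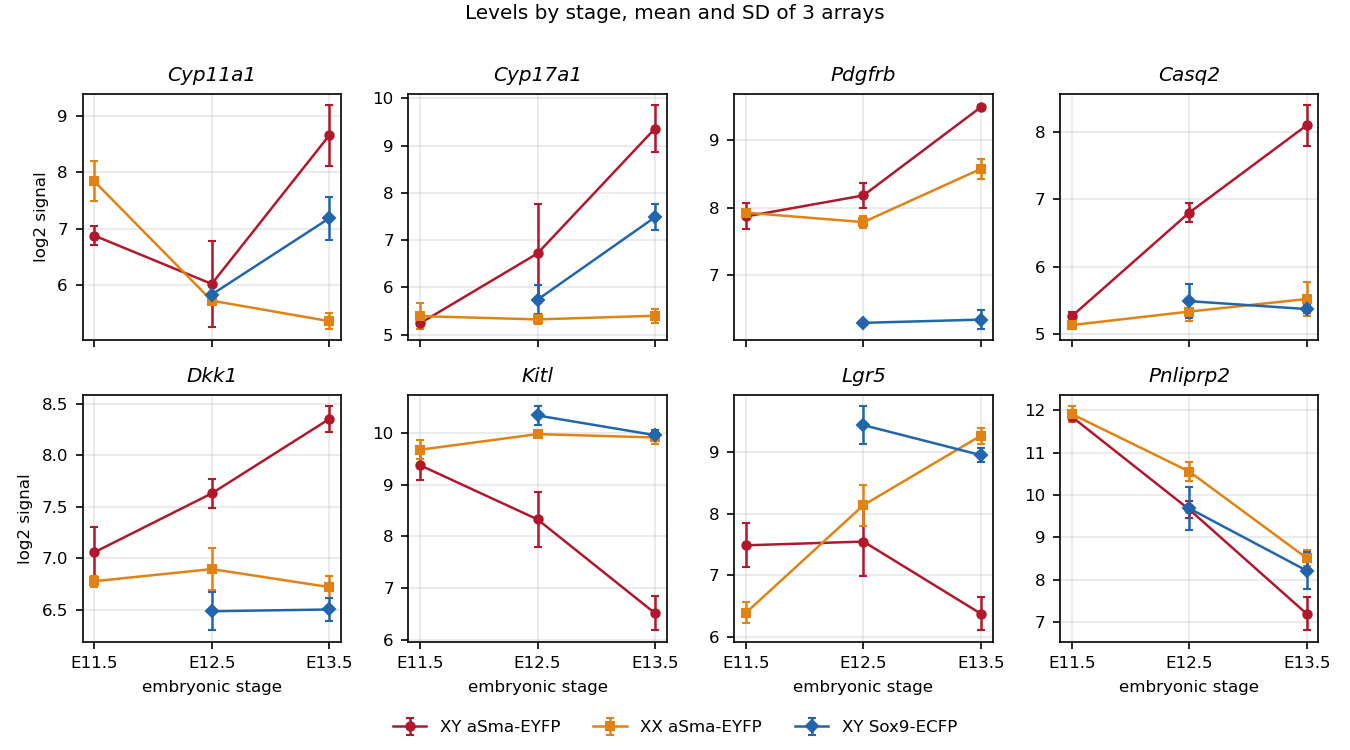
Mean log2 signal (y axis) of 8 genes by stage (x axis) in XY and XX *αSma-EYFP* cells (E11.5 to E13.5) and in XY *Sox9-ECFP* cells (E12.5 and E13.5), with bars of 1 SD over 3 arrays. At E13.5 *Cyp11a1* and *Cyp17a1* lie at 8.66 and 9.36 in XY and at 5.35 and 5.40 in XX *αSma-EYFP* cells, while in XX cells *Cyp11a1* was at 7.84 at E11.5.

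In XX *αSma-EYFP* cells most of these genes had a difference of the same sign, but few passed the test. The sign was the same for 62 of the 86 (72.1%) and 61 of the 85 genes (71.8%), and for 58.5% of all members. Of the 86 higher genes 8 were also higher at E13.5 in XX cells, where 0.215% of all genes tested were, and of the 85 lower genes only *Pnliprp2* was also lower, beside 0.0781% of all genes tested. The 8 were *Abcc9*, *Ccdc141*, *Col6a1*, *Hpse2*, *Igsf10*, *Itih5*, *Lrrc17* and *Ltbp4*. The medians in XX cells were 0.19 for the higher and -0.11 for the lower genes. *Pnliprp2* averaged 11.84 at E11.5, 9.66 at E12.5 and 7.20 at E13.5 in XY cells, and 11.91, 10.55 and 8.51 at the same stages in XX cells, so that its levels went down at each stage in both sexes.

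The change from E12.5 to E13.5 differed between XY and XX *αSma-EYFP* cells for 30 of the 13780 genes, 15 in each direction, beside 34 of all 15359 genes tested (0.221%). *Cyp11a1* led, with 2.64 in XY cells against -0.36 in XX cells (difference 3.01 ± 0.39, adjusted p = 2.15e-06), followed by *Cyp17a1* (2.57 ± 0.38, adjusted p = 2.06e-05) and *Adh1* (1.76, adjusted p = 0.00292). *Casq2*, *Pdlim3* and *Sostdc1* were also among the 15, and their XX changes were 0.19, -0.08 and 0.13. *Rgs5* and *Cxcl12* were higher in XY cells (0.92 and 0.97), and their XX values were -0.73 and -0.61, neither of which passed. At the other end, *Lgr5* had 6.48, 6.07 and 6.59 at E13.5 and 8.16, 7.06 and 7.43 at E12.5 in XY cells, but 9.38, 9.13 and 9.30 at E13.5 and 7.76, 8.25 and 8.41 at E12.5 in XX cells. Every E13.5 array was thus below E12.5 in XY and above E12.5 in XX cells (difference -2.30 ± 0.41, adjusted p = 0.00092). *Kitl* differed by -1.82 in XY cells, against an XX difference of -0.06 (difference -1.75, adjusted p = 0.00202). *Tmem184a* (-2.03), *Gatm*, the first enzyme of creatine synthesis (-1.82), and *Gstm7* (-1.77) completed the leading 5 with *Lgr5* and *Kitl*, and *Trank1* (-1.73) came next. The change of *Gatm* passed in neither sex alone (-0.70, adjusted p = 0.568, in XY cells and 1.12, adjusted p = 0.117, in XX cells). For *Lgr5* the XX change alone did not pass (1.13, adjusted p = 0.0714). Without 1 of the 6 XY arrays the count was 17 (E12.5 replicate 1), 18 (E13.5 replicate 2), 19 (E13.5 replicate 3) or 22 to 28 (the other 3). Without 1 of the 6 XX arrays it was 19 (E13.5 replicate 1), 17 (E12.5 replicate 3) or 21 to 31 (the other 4).

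**Figure D5:**
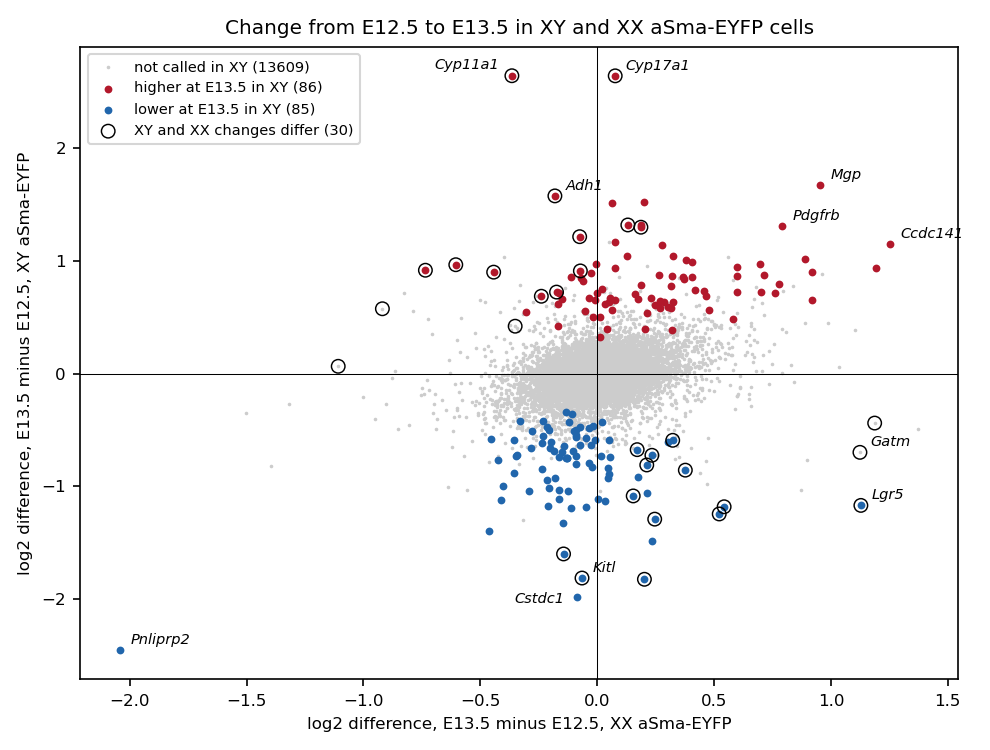
Log2 difference, E13.5 minus E12.5, in XY *αSma-EYFP* cells (y axis) against the same difference in XX *αSma-EYFP* cells (x axis) for 13780 genes. Red points (86) were higher and blue points (85) lower in XY cells, and rings mark the 30 genes whose changes differed. *Pnliprp2* is low on both axes (-2.46 in XY, -2.04 in XX), while *Lgr5* lies at -1.17 in XY and 1.13 in XX cells.

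Across the 3 stages in XY *αSma-EYFP* cells, the genes of this step had different starting points. *Casq2* averaged 5.26 at E11.5, 6.80 at E12.5 and 8.10 at E13.5, and *Cyp17a1* 5.24, 6.72 and 9.36. *Cyp11a1* was at 6.88 ± 0.18 at E11.5, 6.01 ± 0.77 at E12.5 and 8.66 ± 0.55 at E13.5, with E12.5 replicate 1 (6.89) at the level of E11.5. *Kitl* averaged 9.38, 8.33 and 6.51, and *Lgr5* 7.49, 7.55 and 6.38 at the same stages. *Sry* averaged 11.64 at E11.5, 8.25 at E12.5 and 8.09 at E13.5, against 7.75 and 7.77 in XX cells at the last 2 stages.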

How the data were processed

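The authors amplified RNA from sorted, pooled gonadal cells, hybridised it to Affymetrix Gene 1.0 ST arrays and processed 91 arrays together by RMA in Partek (quantile normalization, median polish), with GCOS also listed. The deposited values are log2 intensities of 35557 transcript clusters, of which 21789 name 1 gene, 1621 several and 12147 none in the annotation used here. The genome build is not given in the sources used here.

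Values were fitted with limma 3.58.1 (R 4.3.3), with 1 mean for each of 30 groups over 90 arrays, on the 16859 clusters that reached log2 of 6 in 2 of 3 arrays of any group, with Benjamini-Hochberg adjustment. Each gene is counted by 1 cluster, that with the highest mean. The fit was tested on simulated data. Clusters that may cross-hybridise were not removed. The number of arrays limits the precision. The SE and p-values measure the spread between replicate pools, estimated for each gene over all 30 groups. That spread can differ from the spread among the 6 arrays compared.

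Named genes were the 15 leading called genes per direction without overlap, up to 4 called genes per list and direction (2 with no call), the 5 leading genes per direction in the test of a difference between changes, and *Acta2*, *Sry* and *Eif2s3y*. Others were named after their values were seen. Members and the 31 lists were chosen with earlier results of these data known. Alternatives covered the samples fitted, normalization, level, variance prior, array weights, pairing, each array left out, the study's limits, and adjustment over members. List counts without each array, and XX arrays left out in turn, were added after seeing the data. Comparisons with a further sorted population are not reported here.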

Additional observations from a re-analysis of the deposited data

Results flagged for a closer look

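The change from E12.5 to E13.5 differed between XY and XX *αSma-EYFP* cells in the named genes *Cyp11a1* (XY minus XX change 3.01 on the log2 scale), *Cyp17a1* (2.57), *Adh1* (1.76), *Rgs5* (1.65), *Cxcl12* (1.57), *Star* (1.34), *Pdlim3* (1.29), *Sostdc1* (1.19), *Casq2* (1.11) and *Dkk1* (0.90), each at an adjusted p under 0.05 in the test of the difference itself. It differed the other way in *Lgr5* (-2.30), *Tmem184a* (-2.03), *Gatm* (-1.82), *Gstm7* (-1.77), *Kitl* (-1.75), *Trank1* (-1.73), *Mybl1* (-1.54) and *Kctd14* (-1.46).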

How the results depend on the processing

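The 86 higher and 85 lower genes were 50 and 20 when only the 6 arrays were fitted (37 and 15 shared with the 90-array fit) and 309 and 298 with array weights (86 and 85 shared), where E13.5 replicate 1 had the lowest weight of the 6 (0.44). Leaving out 1 array gave 50 to 82 higher and 22 to 76 lower genes. The other alternatives gave 80 to 116 higher and 77 to 119 lower genes, all within 1.5 times. The 30 genes whose change differed from XX cells were 139 with array weights, 227 under the limits of the study's methods and 17 to 31 with 1 XY or XX array left out. The cause of these shifts was not tested. Replicate numbers did not pair the samples: deviations of same-numbered arrays correlated at -0.02, 0.02 and 0.12. With a replicate block in the 18 *αSma-EYFP* arrays, 102 genes were higher and 111 lower (66 and 63 shared), while the 18 arrays without the block gave 92 and 94. No named gene that was called, in the 90-array fit or in the alternative, reversed direction. Sign changes of named genes called in neither were not counted. Of 56 called named genes, 30 kept their call with the 6 arrays alone, 53 with median-centred arrays and 37 without E12.5 replicate 1. The median difference of all genes stayed between -0.017 and -0.002. Signals near the level of 6 lie close to the array's background, which limits the differences of low genes.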
